A study of Mus musculus with 18 samples.

Results

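Gene expression in periportal hepatocytes was compared between mice fasted for 24 h and fed mice. Periportal hepatocytes are the liver cells next to the portal vein, where blood from the gut and the hepatic artery enters the lobule, the repeating unit of the liver. The comparison used the 6 libraries labelled as periportal at these times, 3 from fed and 3 from fasted mice, out of 18 libraries in the series, and covered all 12477 genes with enough counts to be tested. All mice were wild-type C57BL/6J males on normal chow, 12 weeks old. A training period of 3 days came first, with food for 8 h in the daytime and none for 16 h overnight. The fed mice had 4 h of food together with drinking water containing 20% sucrose and were killed at clock hour 13. The fasted mice had the same meal, lost food and sucrose water at clock hour 13, and were killed at that hour on the next day. Both groups share the training and the sampling hour, and the fed group is a refed group with sucrose. Hepatocytes of each zone were obtained by perfusion with digitonin, a detergent that destroys the cells at the end of the lobule where it enters, so that the cells of the opposite end can be collected. The labels do not say whether samples with the same replicate number share an animal or a day. The p-values set each change against the spread within groups, estimated over all 18 libraries.

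After a meal, insulin drives the liver to store sugar as glycogen and to turn it into fatty acids, through the transcription factors SREBP-1c (encoded by Srebf1) and ChREBP (encoded by Mlxipl). During a fast, glucagon, glucocorticoids and fatty acids from adipose tissue take over: the transcription factors CREB, FOXO1, the glucocorticoid receptor and PPARα then drive glucose output, amino acid use, fatty acid oxidation and ketone body synthesis. The periportal zone is known for gluconeogenesis, urea synthesis and oxidative metabolism, and the pericentral zone for glycolysis, lipid synthesis and drug metabolism.

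At 24 h, 1196 genes were higher and 1250 were lower than in fed libraries, 19.6% of those tested (edgeR quasi-likelihood test, Benjamini-Hochberg adjusted p under 0.05 over all genes, here "called"). The genes called higher were 9.59% of those tested, and those called lower were 10%. Most changes were small, and 96 genes rose and 107 fell by more than 4-fold, a log2 fold change beyond 2. The median log2 fold change over all tested genes was -0.0016. The highest of the 3 libraries of 1 group lay below the lowest of the other group in 36.9% of all tested genes. It did so in 2382 of the 2446 called genes, so lack of overlap adds little to a call in what follows. Among genes that averaged 10 CPM or more in 1 of the groups, did not overlap and were also called without fed replicate 3, the metallothioneins Mt1 and Mt2, Cdkn1a, Igfbp1 and Angptl4 had the largest rises, and Chrna4, Fasn, Angptl8 and Elovl6 the largest falls.

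**Figure D1:**
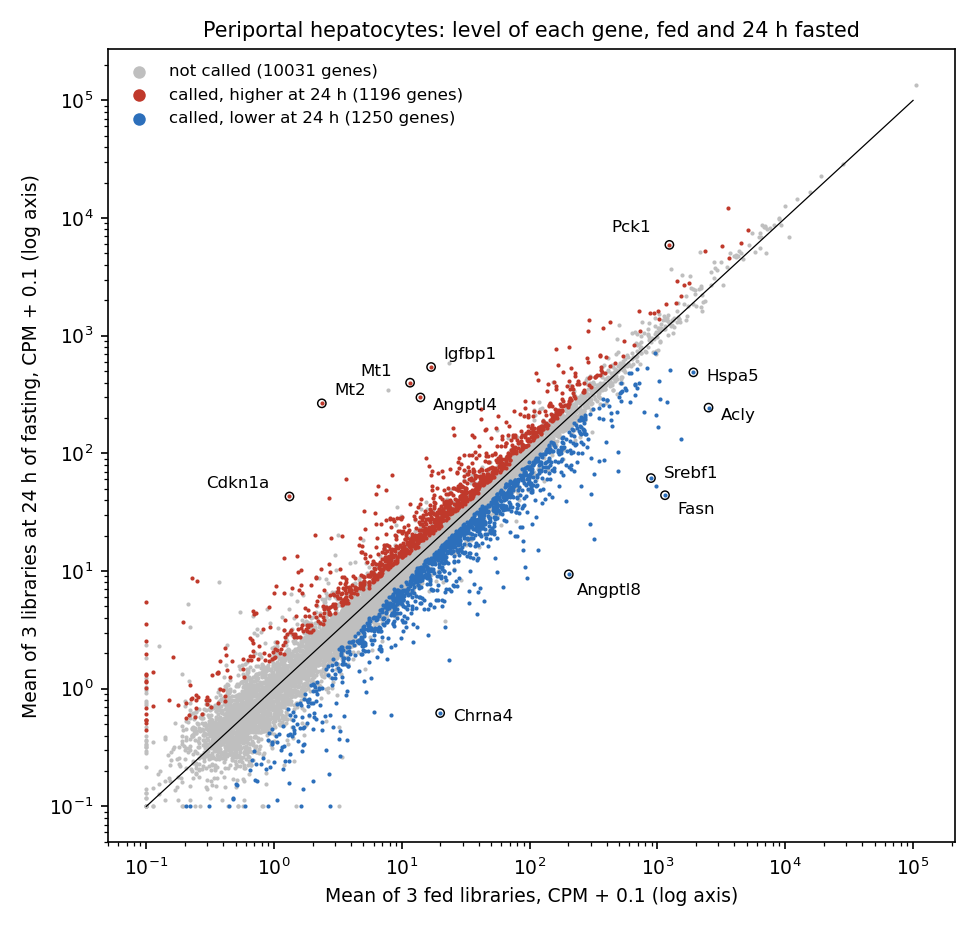
Each point is 1 of 12477 genes, placed by its mean CPM in the 3 fed periportal libraries (x axis) and the 3 libraries at 24 h (y axis), with 0.1 added and log axes. Red and blue points were called higher (1196) and lower (1250) at 24 h, grey points were not called, and the line marks equal levels.

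The 6 libraries held between 18359900 and 26278400 counts each. Levels are given as CPM, counts scaled to the library size with TMM factors, and can be compared between libraries for 1 gene but not between genes, since they are not divided by length. Pearson correlations of log2 CPM with the other libraries of the same group averaged 0.972 to 0.981. Hepatocyte markers summed to 120961 to 141086 CPM in fed and 134003 to 189003 CPM in 24 h libraries. The 14 periportal markers summed to 13412 to 13799 and 15383 to 16989 CPM, and the 13 pericentral markers found in the table to 876 to 2673 and 986 to 2796 CPM. Markers of other cell types were scarce: the 8 sinusoidal endothelial markers summed to 13.6 to 16.6 CPM in fed and 4.69 to 21.8 CPM in 24 h libraries, the 12 Kupffer cell and leukocyte markers to 6.02 to 9.29 and 2.35 to 24.96 CPM, and the 8 stellate cell and fibroblast markers to 4.66 to 7.20 and 2.57 to 10.9 CPM. The 6 cholangiocyte markers summed to 22.3 to 33.7 CPM in fed and 21.3 to 27.6 CPM in 24 h libraries. Among them, Krt19 had between 1 and 11 counts in each library, and Epcam, a defining marker, was at 0 in all 6. The erythroid markers, mostly Alas2 except in 24 h replicate 3, summed to 58.8 to 81.7 and 32.04 to 92.1 CPM. The part of other cells in the results was not tested. In such bulk libraries, fewer cells of a type and less RNA per cell cannot be told apart.

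Fed replicate 3 lay between the other fed libraries and the fasted ones on many metabolic genes. Of the 203 called genes that changed more than 4-fold, fed replicate 3 was the fed library nearest to the 24 h mean in 101, replicate 2 in 56 and replicate 1 in 46. Over all 2446 called genes, replicate 3 was nearest in 1014, replicate 2 in 958 and replicate 1 in 474, so replicates 2 and 3 were nearly even. Without fed replicate 3, 1923 genes were called (15.1% of the 12716 then tested), and 1784 of the 2446 were called in both fits, each in the same direction. The shares called without it were 7.1% higher and 8.02% lower, and counts without it are given for most groups of genes. Leaving out other libraries lowered the count further: 1512 genes were called without fed replicate 1 and 1631 without 24 h replicate 3. The latter had the highest level of Saa1, an acute phase protein (27.6, 25.1 and 17.7 CPM in the fed libraries and 129, 12.5 and 1611 CPM at 24 h), of Hspa1b, a heat shock protein (44.8, 29.8 and 19.3 CPM in the fed libraries and 23.8, 10.8 and 178 CPM at 24 h), and of the 4 haemoglobin genes. None of these genes was called, and their part in other results was not tested.

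Genes of fatty acid synthesis fell, with the lowest median of all 31 lists. Of its 16 genes, 10 were called lower and none higher (median log2 fold change -1.66, against -0.0016 over all genes), and 11 were called lower without fed replicate 3. Fasn, the fatty acid synthase (ENSMUSG00000025153; chr11:120805846-120824547, minus strand, mm10), had 1457, 1527 and 452 CPM in the fed libraries and 33.6, 58.9 and 39.5 CPM at 24 h. The fed and fasted libraries did not overlap, and fed replicate 3 was the lowest of the fed. Fasn was 26.01-fold lower at 24 h (log2 fold change -4.70 ± 0.44, adjusted p = 9.4e-06; ± is the SE throughout for fold changes, with 3 libraries a group). Acly, which makes cytosolic acetyl-CoA from citrate, had 3456, 3286 and 785 CPM in the fed libraries and 242, 256 and 236 CPM at 24 h. The 24 h values lay close together and the fed values were split, with replicate 3 again nearest to the fasted libraries (log2 fold change -3.36 ± 0.57, adjusted p = 0.0011).

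Srebf1, which encodes SREBP-1c, had 953, 1090.2 and 624 CPM in the fed libraries and 78.02, 69.04 and 37.6 CPM at 24 h, without overlap (log2 fold change -3.85 ± 0.38, adjusted p = 1.3e-05). The fatty acid elongase Elovl6 fell by 18.6-fold (log2 fold change -4.22 ± 0.55, adjusted p = 0.00017) and Acaca, the acetyl-CoA carboxylase of fat synthesis, by 6.92-fold (log2 fold change -2.79 ± 0.33, adjusted p = 5.5e-05). Thrsp (Spot 14), a lipogenic regulator, and Mid1ip1, its partner in activating acetyl-CoA carboxylase, both fell (log2 fold changes -3.53 and -3.56, adjusted p = 0.0021 and 2.6e-06). Me1, the malic enzyme that supplies NADPH, had 432, 539 and 208 CPM in the fed libraries and 127, 138 and 108 CPM at 24 h (log2 fold change -1.66 ± 0.34, adjusted p = 0.0032). Aacs, which activates acetoacetate for lipid synthesis in the cytosol and is in no list, had 372, 329.9 and 249 CPM in the fed libraries and 20.1, 19.5 and 16.1 CPM at 24 h. All 3 fed libraries lay more than 10-fold above every fasted library for Aacs (log2 fold change -4.10 ± 0.39, adjusted p = 1.0e-05).

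For other genes of the list the call depended on single libraries. Acacb, the carboxylase at the mitochondrial surface, had 218, 166 and 42.5 CPM in the fed libraries and 43.4, 41.1 and 50.8 CPM at 24 h. Fed replicate 3 lay within the fasted range, and the call of Acacb (log2 fold change -1.66 ± 0.47, adjusted p = 0.025) was lost without each of fed replicates 1 and 2 and 24 h replicates 1, 2 and 3 (adjusted p = 0.060 to 0.12). Acacb was also not called when only these groups were fitted (adjusted p = 0.15). Acss2, the cytosolic acetyl-CoA synthetase, was lower (log2 fold change -1.33 ± 0.35, adjusted p = 0.015), and its call was lost without each of fed replicates 1 and 2 and 24 h replicates 2 and 3 (adjusted p = 0.056 to 0.063). Scd1, the stearoyl-CoA desaturase, had 8187, 11389.6 and 1583 CPM in the fed libraries and 5116, 5078 and 4907 CPM at 24 h. It was not called (log2 fold change -0.49 ± 0.53, adjusted p = 0.58): fed replicate 3 was below all fasted libraries and the other fed libraries above them, and without fed replicate 3 its log2 fold change was -0.97 (adjusted p = 0.093). Pnpla3, a lipase of lipid droplets known as an SREBP-1c target, had 10.4, 12.5 and 1.25 CPM in the fed libraries and 0.447, 0.374 and 0.690 CPM at 24 h, without overlap (log2 fold change -3.98 ± 0.79, adjusted p = 0.0028). Limma-voom did not call Pnpla3 (adjusted p = 0.099).

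**Figure D2:**
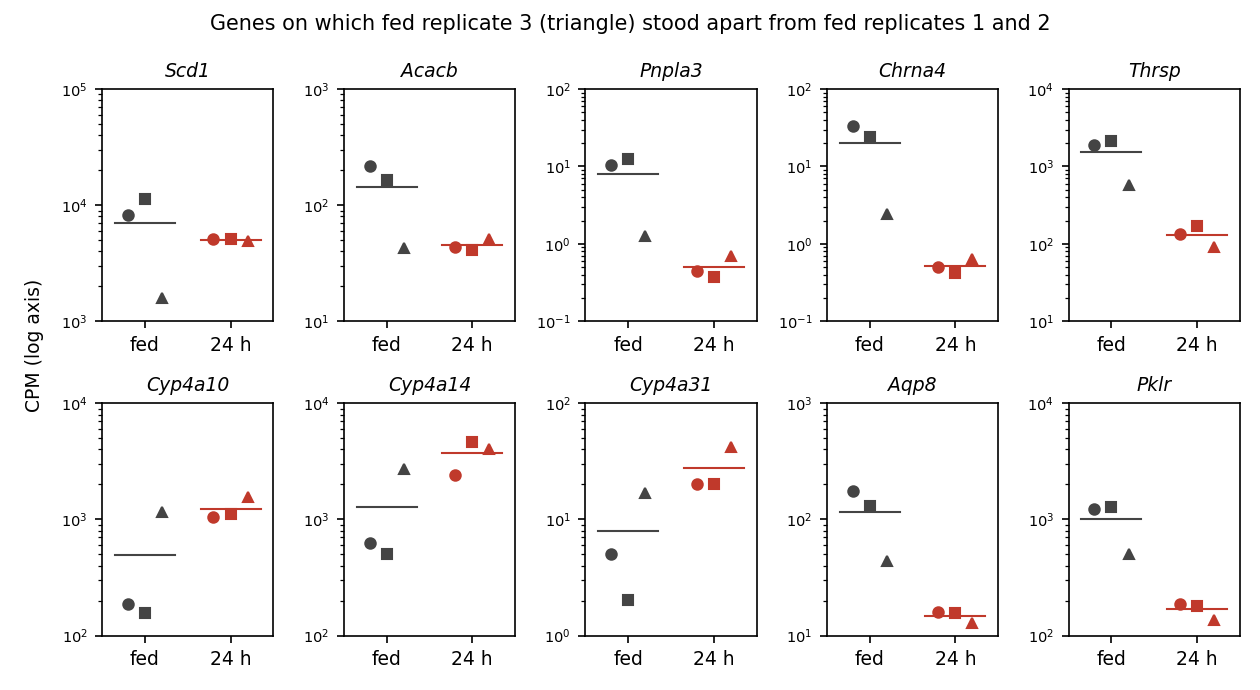
CPM on a log axis in each periportal library for 10 genes, with fed libraries in grey and 24 h libraries in red, replicates 1 to 3 as circle, square and triangle, and lines at the group means. Fed replicate 3 (triangle) stands nearer to the fasted libraries than the other fed libraries do on Acacb, Pnpla3, Chrna4, Thrsp, Pklr, Aqp8 and the Cyp4a genes, and below all 5 others on Scd1.

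Genes of cholesterol synthesis, which share the SREBP transcription factors with fat synthesis, fell as well. Of 24 genes of cholesterol synthesis and uptake, 13 were called lower and none higher (median -0.81), and 14 were called lower without fed replicate 3. Mvd, a step in the mevalonate pathway, fell by 5.78-fold (log2 fold change -2.53 ± 0.25, adjusted p = 9.2e-06). Insig1, the endoplasmic reticulum protein that retains SREBP precursors, had 1477, 1372 and 710.1 CPM in the fed libraries and 205, 226 and 387 CPM at 24 h (log2 fold change -2.12 ± 0.27, adjusted p = 7.3e-05). Sc5d, a late sterol desaturase, had 866, 840.3 and 632 CPM in the fed libraries and 238, 206 and 225 CPM at 24 h, without overlap (log2 fold change -1.81 ± 0.17, adjusted p = 6.6e-06).

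Some genes of sugar use fell, and most did not pass the test. Of 17 tested genes of glycolysis and fructose use, 6 were called lower and none higher (median -0.13), with 6 lower without fed replicate 3. Pklr, the liver pyruvate kinase, had 1233, 1282 and 500.0 CPM in the fed libraries and 188, 181 and 136 CPM at 24 h. Fed replicate 3 was the lowest fed library and still above every fasted one (log2 fold change -2.58 ± 0.34, adjusted p = 0.00011). Tkfc, the triokinase of fructose breakdown, fell by 3.61-fold (log2 fold change -1.85 ± 0.21, adjusted p = 2.7e-05), Gpi1, the glucose-6-phosphate isomerase, by 0.98 on the log2 scale (adjusted p = 0.0089), and Mlxipl, which encodes ChREBP, by 1.05 (adjusted p = 0.0086). Eno1, an enolase, passed the threshold by little (log2 fold change -0.41 ± 0.14, adjusted p = 0.047), and 5 of the 6 fits without 1 library did not call it.

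Of 12 glycogen genes, 3 were called lower and 1 higher, with 4 and 1 without fed replicate 3. Among all tested genes, 10% were called lower and 9.59% higher, so 1 higher of 12 is close to that share. Pygl, the liver glycogen phosphorylase, had 677, 758 and 569 CPM in the fed libraries and 313, 369 and 257 CPM at 24 h (log2 fold change -1.09 ± 0.18, adjusted p = 0.00052). The branching enzyme Gbe1 fell less (log2 fold change -0.77 ± 0.16, adjusted p = 0.0029). The gene called higher was Ppp1r3g, a subunit that targets protein phosphatase 1 to glycogen. It had 0, 0.240 and 0.147 CPM in the fed libraries and 5.98, 4.36 and 15.7 CPM at 24 h, so the fed libraries held almost no reads and the size of its fold change is poorly determined (log2 fold change 6.00 ± 1.19, adjusted p = 0.0032).

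A few genes of glucose output rose. Of 12 genes, Pck1, G6pc and Got1 were called higher, Slc2a2 was called lower, and the other 8 were not called (median 0.07). The same 3 and 1 were counted without fed replicate 3. Pck1, the cytosolic phosphoenolpyruvate carboxykinase and the rate-controlling step of gluconeogenesis (chr2:173153048-173159273, plus strand, mm10), had 593, 927 and 2198 CPM in the fed libraries and 6027, 5505 and 6221 CPM at 24 h. The fasted libraries lay close together, the fed libraries were spread, and fed replicate 3 was the highest of them. Pck1 was 4.77-fold higher at 24 h (log2 fold change 2.26 ± 0.48, adjusted p = 0.0045), and the log2 fold change was 2.95 without fed replicate 3. G6pc, the glucose-6-phosphatase that releases free glucose, had 264, 316 and 548 CPM in the fed libraries and 892, 1002 and 1599 CPM at 24 h (log2 fold change 1.63 ± 0.35, adjusted p = 0.0044). Got1, the cytosolic aspartate aminotransferase, had 117, 188 and 179 CPM in the fed libraries and 789, 813 and 720.2 CPM at 24 h, and every fasted library was above every fed one (log2 fold change 2.26 ± 0.41, adjusted p = 0.0017). Slc2a2, the glucose transporter GLUT2, was lower (log2 fold change -0.70 ± 0.20, adjusted p = 0.018), and its call was lost without each of fed replicates 1 and 2 and 24 h replicate 3 (adjusted p = 0.061 to 0.081). Fbp1, the fructose-1,6-bisphosphatase, had 1442, 1472 and 1489 CPM in the fed libraries and 1331, 1386 and 1446 CPM at 24 h, with overlapping groups (log2 fold change -0.08 ± 0.12, adjusted p = 0.69).

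The promoter of Pck1 is shown because a cAMP response element in it is known to take part in its fasting control. The 250 bases before the annotated start (RefSeq, GRCm38.p6, chr2:173152823-173153072, plus strand) hold 1 match to TNACGTCA, in capitals. Searched on both strands, the motif was found in the same window of 2.92% of 27025 genes with a promoter entry.
Pck1 promoter: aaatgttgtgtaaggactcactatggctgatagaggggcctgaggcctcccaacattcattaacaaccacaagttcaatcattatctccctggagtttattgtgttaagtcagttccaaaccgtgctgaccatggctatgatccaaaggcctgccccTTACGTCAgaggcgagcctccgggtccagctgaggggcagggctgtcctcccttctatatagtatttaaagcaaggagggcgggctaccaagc

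Regulators of this programme moved in both directions. Of 14 tested genes of 15 listed, 7 were called higher and 2 lower, with 6 and 2 without fed replicate 3. Ppargc1a, the coactivator PGC-1α, had 10.4, 13.5 and 10.6 CPM in the fed libraries and 33.5, 41.7 and 35.1 CPM at 24 h, without overlap (log2 fold change 1.68 ± 0.23, adjusted p = 0.00015). Foxo1, which insulin signalling keeps out of the nucleus, had 21.7, 30.5 and 28.9 CPM in the fed libraries and 61.4, 84.7 and 62.8 CPM at 24 h, also without overlap (log2 fold change 1.37 ± 0.17, adjusted p = 5.7e-05). Klf15, a regulator of amino acid breakdown and gluconeogenesis, rose by 2.32-fold (log2 fold change 1.21 ± 0.20, adjusted p = 0.00057). Crtc2, the CREB coactivator, and Creb3l3, a hepatic transcription factor bound to the endoplasmic reticulum, rose by 0.78 and 0.57 on the log2 scale (adjusted p = 0.00093 and 0.0029). Foxo3 rose by 0.65, a call lost without fed replicate 1 (adjusted p = 0.062). Cebpb and Cebpa, transcription factors of the same family, went in opposite directions (0.89 and -0.90, adjusted p = 0.012 and 0.010). The call of Cebpb was lost without each of fed replicate 3 and 24 h replicate 2 (adjusted p = 0.055 to 0.060), and that of Cebpa without 24 h replicate 3 (adjusted p = 0.055). Pde4b, a phosphodiesterase that breaks down cAMP, fell by 3.75-fold (log2 fold change -1.91 ± 0.42, adjusted p = 0.0048).

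**Figure D3:**
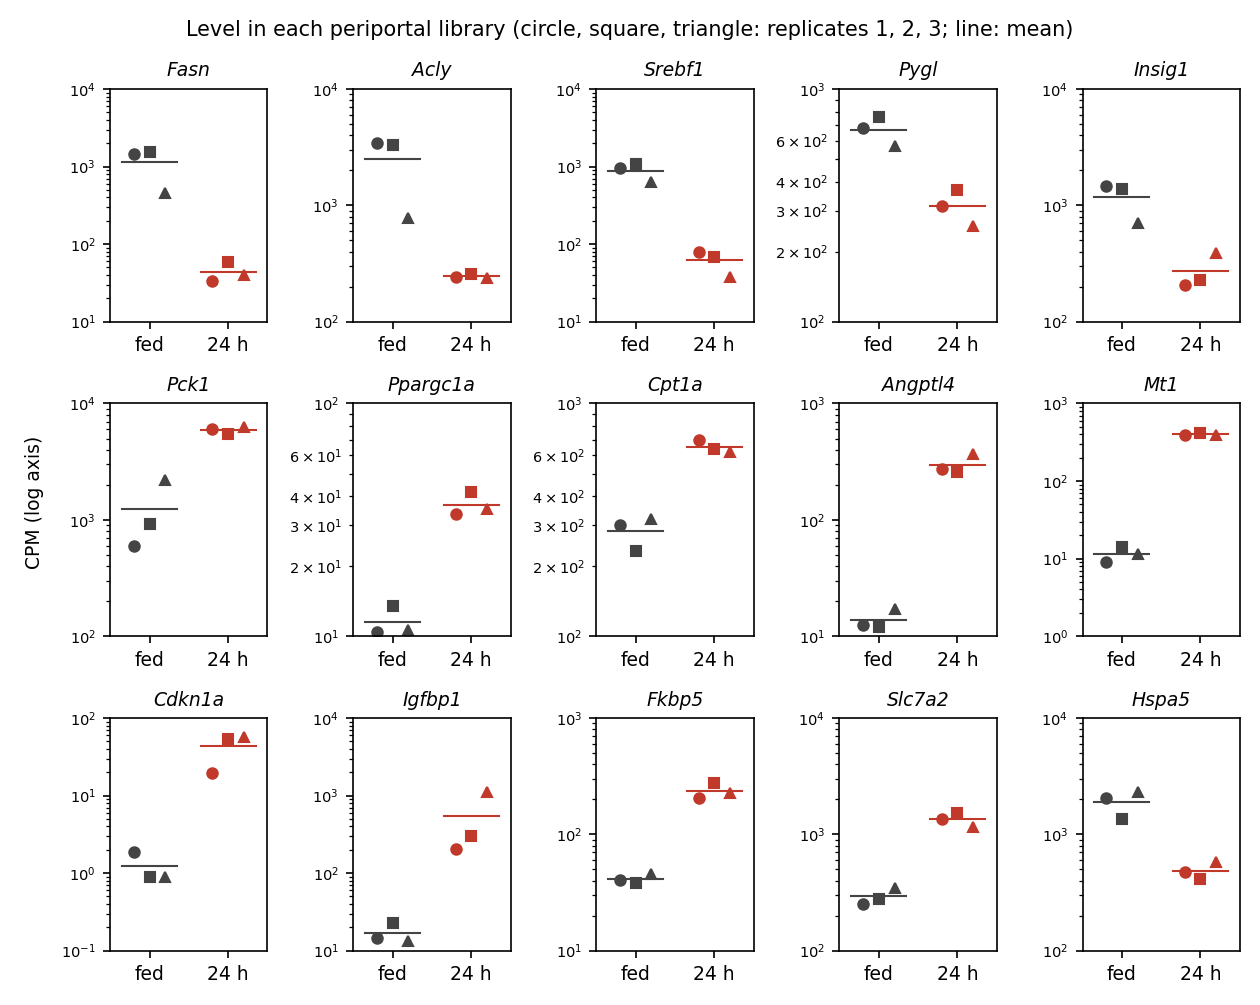
CPM on a log axis for 15 genes in each periportal library, with fed libraries in grey and 24 h libraries in red, replicates 1 to 3 as circle, square and triangle, and lines at the group means. All 15 genes shown were called, and their fed and fasted libraries do not overlap, as in 2382 of the 2446 called genes.

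Many genes of fatty acid oxidation rose, most by less than 2-fold. Of 20 genes, 14 were called higher and none lower (median 0.48), and all 20 had a positive log2 fold change. The count was 13 without fed replicate 3. It was between 5 and 6 in 4 other fits without 1 library (fed replicates 1 and 2, 24 h replicates 2 and 3). These fits also called fewer genes in all, 1512, 1894, 1713 and 1631 in the same order, against 2446. Counts of any list in such fits are to be read beside these. Cpt1a, which admits fatty acids to mitochondria, had 299.6, 232 and 317 CPM in the fed libraries and 699, 638 and 620.1 CPM at 24 h, without overlap (log2 fold change 1.20 ± 0.15, adjusted p = 4.4e-05). Cpt2 and Slc25a20, the next steps of the carnitine shuttle, rose by 0.68 and 0.74 (adjusted p = 0.0049 and 0.00088). Ppara, which encodes PPARα, had 68.99, 79.1 and 81.2 CPM in the fed libraries and 145, 136 and 129 CPM at 24 h (log2 fold change 0.84 ± 0.15, adjusted p = 0.00090), and Pex11a, a peroxisomal gene, rose by 2.42-fold (log2 fold change 1.28 ± 0.19, adjusted p = 0.00021). The enzymes of the mitochondrial spiral moved less, for example Acadm, the medium-chain acyl-CoA dehydrogenase (log2 fold change 0.52 ± 0.16, adjusted p = 0.033), and Hadha, the α subunit of the trifunctional protein (log2 fold change 0.43 ± 0.14, adjusted p = 0.037). Both of these calls were lost without each of fed replicates 1 and 2 and 24 h replicates 2 and 3, with adjusted p between 0.075 and 0.16.

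Of 5 genes in the list of ketone body synthesis, 2 were called higher and 1 lower, with 2 and 1 without fed replicate 3. In all, 1 of the 5 was called without each of fed replicates 1 and 2 and 24 h replicates 2 and 3. The gene called lower was Slc16a6, a transporter known for the export of ketone bodies, which had 18.9, 17.1 and 13.3 CPM in the fed libraries and 6.87, 5.11 and 3.40 CPM at 24 h, without overlap (log2 fold change -1.68 ± 0.28, adjusted p = 0.00052).

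The list of omega-oxidation and acyl-CoA thioesterases holds PPARα targets that oxidise fatty acids at the far end or release them from coenzyme A. Of 8 tested of 9, 6 were called higher and none lower (median 1.66), all 8 were called without fed replicate 3, and 3 without fed replicate 2. Acot1, a cytosolic thioesterase, had 3.09, 2.24 and 5.25 CPM in the fed libraries and 36.7, 80.5 and 64.6 CPM at 24 h, without overlap (log2 fold change 4.09 ± 0.76, adjusted p = 0.0023). Its relatives Acot3 and Acot4 rose by 2.05 and 1.08 (adjusted p = 0.018 and 0.0059), and the call of Acot3 was lost without each of fed replicates 1 and 2 and 24 h replicate 2 (adjusted p = 0.054 to 0.081). Acot2, the mitochondrial member, rose by 2.09 (adjusted p = 0.012), and its call was lost without fed replicate 2 (adjusted p = 0.0503).

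Among the Cyp4a genes, fatty acid omega-hydroxylases, the calls of Cyp4a10 and Cyp4a14 depended on fed replicate 3. Cyp4a10 had 187, 158 and 1149 CPM in the fed libraries and 1058, 1111 and 1558 CPM at 24 h, and Cyp4a14 had 632, 504 and 2693 CPM in the fed libraries and 2429.9, 4645 and 4067 CPM at 24 h. In both, fed replicate 3 lay within the fasted range and several-fold above the other fed libraries. Neither was called (adjusted p = 0.22 and 0.13), and both were called without that library, at log2 fold changes of 2.84 and 2.70 (adjusted p = 0.0054 and 0.011). Limma-voom called Cyp4a14 with all libraries (adjusted p = 0.042). Cyp4a32 had 8.87, 7.35 and 11.5 CPM in the fed libraries and 23.4, 19.9 and 22.2 CPM at 24 h, without overlap (log2 fold change 1.24 ± 0.20, adjusted p = 0.00056), and was also called without fed replicate 3. Cyp4a31 passed the threshold by little (log2 fold change 1.77 ± 0.58, adjusted p = 0.048), and its call was lost without each of the other 5 libraries. Cyp4a31 was also not called when only these groups were fitted (adjusted p = 0.23). Members of the Cyp4a and Acot families are near-identical in sequence, so reads shared out among them make the single levels uncertain.

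Some lipid droplet genes rose and few fell. Of 16 tested of 17, 7 were called higher and 2 lower (median 0.85), with 6 and 2 without fed replicate 3. Pnpla2, the adipose triglyceride lipase, had 37.6, 38.8 and 43.6 CPM in the fed libraries and 116, 111 and 118 CPM at 24 h, without overlap (log2 fold change 1.53 ± 0.14, adjusted p = 5.2e-06). Plin5, the perilipin that ties droplets to mitochondria, had 37.4, 34.6 and 38.1 CPM in the fed libraries and 95.5, 191 and 128 CPM at 24 h (log2 fold change 1.91 ± 0.29, adjusted p = 0.00047), and Plin2, the main hepatic perilipin, rose by 2.01-fold (log2 fold change 1.01 ± 0.24, adjusted p = 0.0079). Cidec, a droplet fusion protein, rose from a low level (1.53, 2.16 and 1.80 to 5.03, 7.86 and 9.61 CPM, log2 fold change 2.04 ± 0.47, adjusted p = 0.0062). Lpin2, a phosphatidate phosphatase, had 159.7, 203 and 134 CPM in the fed libraries and 488, 509.8 and 699 CPM at 24 h (log2 fold change 1.77 ± 0.22, adjusted p = 5.5e-05). Its relative Lpin1 had an adjusted p just under the threshold and lost its call in every fit without 1 library. The genes called lower were Abhd5, the activator of Pnpla2 (log2 fold change -0.55 ± 0.12, adjusted p = 0.0050), and Plin3 (log2 fold change -0.68 ± 0.18, adjusted p = 0.014). In Plin3 the groups overlapped, and the call was lost without each of fed replicate 1 and 24 h replicate 3 (adjusted p = 0.071 to 0.085).

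Of 10 tested genes of pyruvate dehydrogenase and its control, 3 were called higher and 1 lower, but 1 and 1 without fed replicate 3. Without fed replicate 1, none was called higher, and 1 was without fed replicate 2 or 24 h replicate 2 or 3. The shares of all tested genes were 9.59% higher and 10% lower, and 7.1% and 8.02% without fed replicate 3. Pdk4, the kinase that shuts the complex down in fasting, had 2.48, 3.36 and 2.17 CPM in the fed libraries and 7.71, 11.2 and 37.8 CPM at 24 h. It did not overlap but 24 h replicate 3 was far above the other fasted libraries (log2 fold change 2.83 ± 0.74, adjusted p = 0.017), and the call was lost without each of fed replicates 1 and 3 and 24 h replicate 3 (adjusted p = 0.062 to 0.099). Pdk4 was also not called when only these groups were fitted (adjusted p = 0.057). Pdk2 rose by 0.45 (adjusted p = 0.049), a call lost in 5 of the 6 fits without 1 library. Limma-voom called 1 of the 10 genes, and neither Pdk4 nor Pdk2 (adjusted p = 0.061 and 0.059). Pdhb, the β subunit of the complex's first enzyme, had 225, 248 and 177 CPM in the fed libraries and 119, 138 and 114 CPM at 24 h and fell (log2 fold change -0.81 ± 0.16, adjusted p = 0.0019).

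Some transporters and few enzymes of amino acid breakdown rose. Of 9 genes in the list of amino acid transporters, which also holds mitochondrial carriers, 5 were called higher and none lower (median 1.02), with 4 without fed replicate 3 and 3 without fed replicate 2 or 24 h replicate 3. Slc7a2, the cationic amino acid transporter of hepatocytes, had 252, 281 and 345 CPM in the fed libraries and 1368, 1515 and 1158 CPM at 24 h, far apart in the 2 groups (log2 fold change 2.20 ± 0.22, adjusted p = 7.6e-06). Slc25a47, a mitochondrial carrier made mainly in liver, had 438, 449.6 and 394 CPM in the fed libraries and 935, 1506 and 1509 CPM at 24 h, without overlap (log2 fold change 1.62 ± 0.20, adjusted p = 3.9e-05). Slc38a2, the neutral amino acid transporter SNAT2, rose by 2.17-fold (log2 fold change 1.12 ± 0.25, adjusted p = 0.0063). Slc25a25, a mitochondrial ATP-Mg carrier, and Slc43a1, a branched-chain amino acid transporter, were called with adjusted p of 0.037 and 0.049. Slc25a25 lost its call without each of fed replicates 1 and 2 and 24 h replicate 3 (adjusted p = 0.11 to 0.22), and Slc43a1 without each library but fed replicate 1. Slc25a25 was also not called when only these groups were fitted (adjusted p = 0.17).

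Of 29 genes of amino acid breakdown, 5 were called higher and none lower (median 0.26), with 5 without fed replicate 3 and 2 or 3 without fed replicate 1 or 2 or 24 h replicate 2 or 3. Sds, the serine dehydratase that feeds gluconeogenesis, had 187, 211 and 209.5 CPM in the fed libraries and 713, 1009.9 and 689 CPM at 24 h, without overlap (log2 fold change 1.99 ± 0.42, adjusted p = 0.0046). Aass, the first enzyme of lysine breakdown, had 259, 269 and 334 CPM in the fed libraries and 544, 598 and 653 CPM at 24 h (log2 fold change 1.06 ± 0.20, adjusted p = 0.0016). Mat1a, which makes S-adenosylmethionine, had 1598, 2354 and 3072 CPM in the fed libraries and 4271, 5846 and 5736 CPM at 24 h (log2 fold change 1.17 ± 0.30, adjusted p = 0.011). Its call was lost without fed replicate 1 (adjusted p = 0.059). Tdo2, which opens the tryptophan ring, and Bckdha, of the branched-chain keto acid dehydrogenase, were called higher (1.04 and 0.32, adjusted p = 0.018 and 0.019), and both lost the call without each of fed replicates 1 and 2 and 24 h replicates 2 and 3. Tat, the tyrosine aminotransferase, had 1781, 2431 and 2209 CPM in the fed libraries and 4161, 5077 and 6188 CPM at 24 h. It did not overlap but was not called (log2 fold change 1.26 ± 0.44, adjusted p = 0.057). Tat was called by DESeq2 (adjusted p = 0.013) and when only these groups were fitted (adjusted p = 0.0017). Of 10 urea cycle genes, Arg1, the arginase (log2 fold change 0.72 ± 0.18, adjusted p = 0.011), and Asl, the argininosuccinate lyase (log2 fold change 0.70 ± 0.20, adjusted p = 0.025), were called higher and none lower, and 3 were called higher without fed replicate 3. The share called was 20% in the urea cycle and 17.2% in amino acid breakdown, close to the 19.6% of all tested genes. Arg1 lost its call without fed replicate 1 (adjusted p = 0.053), and Asl without each of fed replicate 1 and 24 h replicates 1, 2 and 3 (adjusted p = 0.053 to 0.11). Cps1, the entry enzyme of the cycle, was not called (log2 fold change 0.18 ± 0.21, adjusted p = 0.60).

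**Figure D4:**
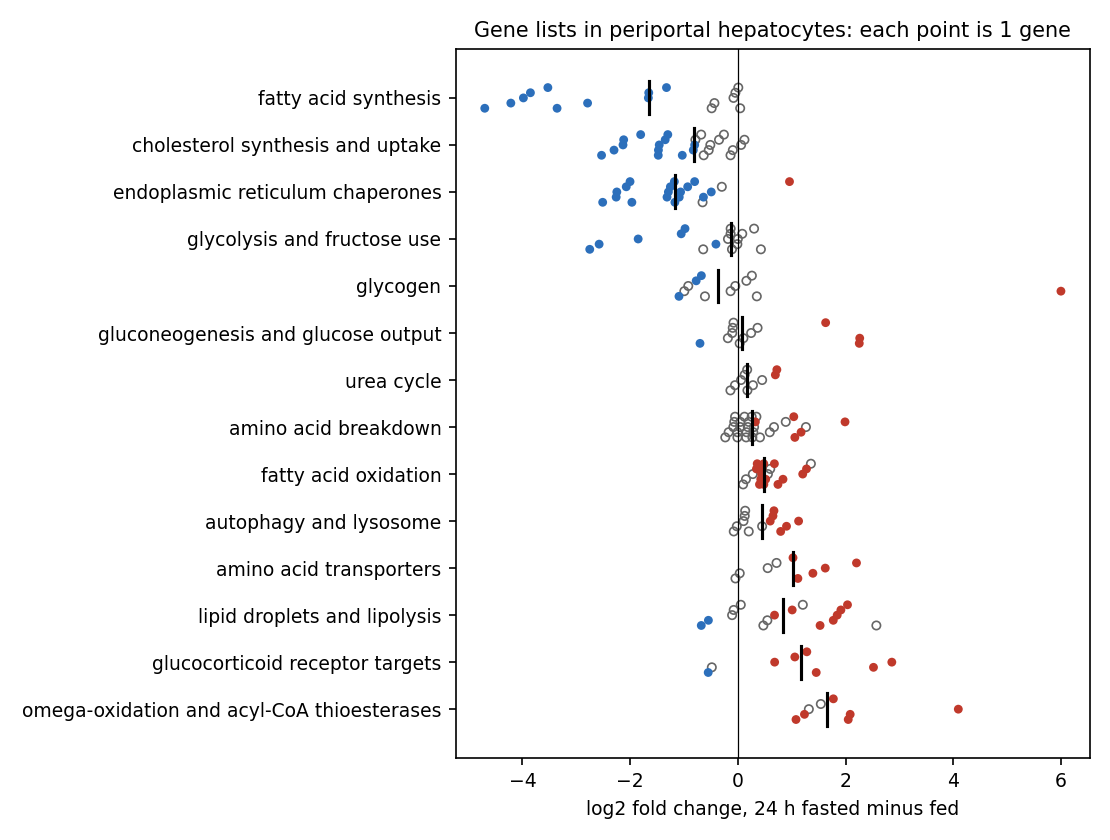
Log2 fold change from fed to 24 h (x axis) of each gene in 14 lists, 1 point a gene. Filled blue and red points were called lower and higher, open points were not called, black bars are list medians, and 1 gene with no reads in the fed libraries is not drawn; medians run from -1.66 for fatty acid synthesis to 1.66 for omega-oxidation and acyl-CoA thioesterases.

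Chaperones of the endoplasmic reticulum, which fold secreted proteins, fell together. Of 20 genes of this list, which also holds regulators of the unfolded protein response, 17 were called lower and 1 higher (median -1.17), with 16 and 1 without fed replicate 3. Between 17 and 18 of the 20 were called in each fit without 1 library. Hspa5, the main chaperone BiP (chr2:34771970-34777547, plus strand, mm10), had 2052, 1361 and 2318 CPM in the fed libraries and 478, 409.8 and 577 CPM at 24 h. The fed libraries were all more than 2-fold above the fasted ones, and here fed replicate 3 was the highest (log2 fold change -1.97 ± 0.19, adjusted p = 7.1e-06). Sdf2l1, Manf and Hyou1, which assist BiP or are secreted under stress, fell by 5.70, 4.79 and 4.75-fold (adjusted p = 0.00073, 3.6e-05 and 2.0e-05). Hsp90b1, the chaperone GRP94, had 1264, 975 and 1543 CPM in the fed libraries and 527, 442 and 578 CPM at 24 h (log2 fold change -1.29 ± 0.17, adjusted p = 7.2e-05), and Calr, the lectin chaperone calreticulin, had 1099.8, 829 and 1146 CPM in the fed libraries and 424, 348 and 463 CPM at 24 h (log2 fold change -1.32 ± 0.19, adjusted p = 0.00016). Neither overlapped. Xbp1, a transcription factor of the response, had 240.0, 242 and 233 CPM in the fed libraries and 101, 107 and 91.8 CPM at 24 h (log2 fold change -1.25 ± 0.18, adjusted p = 0.00021).

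The gene of this list that rose was Herpud1, a component of the machinery that removes misfolded proteins from the endoplasmic reticulum. It had 353, 272 and 434 CPM in the fed libraries and 607, 752 and 698 CPM at 24 h, without overlap (log2 fold change 0.96 ± 0.18, adjusted p = 0.0014). The smallest called fall was that of Dnajc3, a cochaperone of BiP (log2 fold change -0.49 ± 0.15, adjusted p = 0.031). Its groups overlapped, and its call was lost without each of fed replicates 1 and 3 and 24 h replicates 1 and 2 (adjusted p = 0.098 to 0.12).

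The promoters of these genes are shown because the endoplasmic reticulum stress element, a site for NF-Y and the factors ATF6 and XBP1, is known to drive them together. The element (CCAAT, then any 9 bases, then CCACG) was searched on both strands in the 250 bases before each annotated start (RefSeq, GRCm38.p6), and its CCAAT box is also a general NF-Y site. It was present in 7 of 18 genes of the list with a promoter entry and in 0.13% of 27025 genes. The element is known from genes of this kind, so its higher share in the list is no result of these data. In the 7 genes the median log2 fold change was -1.29 and all were called lower, and in the 11 without a match it was -1.06 and 8 were called lower. The 8 sites follow, each read on the strand where it matches (mm10 coordinates), with the fixed bases in capitals and the spacer in lower case. Hsp90b1 has a pair of them.
Hspa5 (chr2:34772025-34772043, plus strand): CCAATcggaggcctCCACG
Hsp90b1 (chr10:86705638-86705656, minus strand): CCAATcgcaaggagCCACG
Hsp90b1 (chr10:86705533-86705551, plus strand): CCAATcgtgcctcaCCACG
Pdia6 (chr12:17266491-17266509, plus strand): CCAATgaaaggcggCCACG
Calr (chr8:84847075-84847093, plus strand): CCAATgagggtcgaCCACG
Canx (chr11:50325800-50325818, minus strand): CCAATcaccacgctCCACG
Dnajc3 (chr14:118937827-118937845, plus strand): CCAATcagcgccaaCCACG
Creld2 (chr15:88819520-88819538, minus strand): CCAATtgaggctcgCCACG

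The site of Hspa5 lies 65 to 47 bases before the annotated start. The same 250 bases are printed whole, with the element in capitals (chr2:34771840-34772089, plus strand).
Hspa5 promoter: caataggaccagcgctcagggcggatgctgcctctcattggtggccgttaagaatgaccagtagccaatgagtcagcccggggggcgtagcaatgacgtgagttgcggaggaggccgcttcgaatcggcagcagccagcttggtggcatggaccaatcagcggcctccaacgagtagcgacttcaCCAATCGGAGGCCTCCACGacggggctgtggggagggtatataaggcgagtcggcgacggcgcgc

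The metallothioneins Mt1 and Mt2, small proteins that bind zinc and copper, rose. Mt2 had 2.81, 2.48 and 1.51 CPM in the fed libraries and 307, 315 and 176 CPM at 24 h, and Mt1 had 8.91, 13.9 and 11.6 CPM in the fed libraries and 393, 415 and 388 CPM at 24 h. The fasted libraries of Mt1 lay within 10% of each other, and both genes were far above the fed libraries (log2 fold change 5.12 ± 0.77, adjusted p = 0.00056 for Mt1, and 6.88, adjusted p = 0.00045 for Mt2). These neighbours on chromosome 8 (chr8:94172664-94173568, plus strand, and chr8:94179082-94180327, plus strand, mm10) are similar in sequence, and how reads were split between them is uncertain. Of the other 5 genes in the zinc list, Slc30a10, a manganese exporter of the zinc transporter family, fell (101, 96.04 and 65.2 CPM in the fed libraries and 22.8, 32.1 and 47.1 CPM at 24 h; log2 fold change -1.36 ± 0.22, adjusted p = 0.00067), and the rest were not called. The same 2 and 1 were called in each of the 6 fits without 1 library.

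Their promoters are shown because the pair moved together and because metal response elements and glucocorticoids are known to control them. Matches to the core TGCGCNC or TGCACNC on either strand are in capitals in the 250 bases before each annotated start (RefSeq, GRCm38.p6, plus strand, chr8:94178839-94179088 and chr8:94172368-94172617). Mt1 had 1 and Mt2 had 3 matches, and at least 1 was found in 23.8% of 27025 genes and at least 3 in 1.46%. Elements outside this window were not counted, so these are no totals for either gene.
Mt1 promoter: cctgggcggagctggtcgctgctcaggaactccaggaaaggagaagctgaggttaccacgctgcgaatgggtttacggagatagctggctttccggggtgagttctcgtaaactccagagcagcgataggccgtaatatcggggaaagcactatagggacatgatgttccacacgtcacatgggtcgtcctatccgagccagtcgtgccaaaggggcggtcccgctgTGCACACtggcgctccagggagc
Mt2 promoter: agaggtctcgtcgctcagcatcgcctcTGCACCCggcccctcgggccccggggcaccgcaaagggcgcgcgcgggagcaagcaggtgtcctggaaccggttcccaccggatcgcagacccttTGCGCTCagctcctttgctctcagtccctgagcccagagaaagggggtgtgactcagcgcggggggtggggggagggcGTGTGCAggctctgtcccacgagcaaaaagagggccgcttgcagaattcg

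Most glucocorticoid receptor targets rose. Of 8 genes, 6 were called higher, and the 1 called lower was Nr3c1, the receptor itself (log2 fold change -0.55 ± 0.12, adjusted p = 0.0038). The remaining gene, the target Dusp1, had a negative log2 fold change and was not called. The counts were the same without fed replicate 3, and 4 of the 8 were called without fed replicate 1, fed replicate 2 or 24 h replicate 3. Fkbp5, a cochaperone of the receptor, had 40.4, 38.4 and 45.5 CPM in the fed libraries and 205, 279 and 229 CPM at 24 h, without overlap (log2 fold change 2.52 ± 0.49, adjusted p = 0.0027). Klf9 had 42.6, 44.1 and 61.2 CPM in the fed libraries and 131, 151 and 125 CPM at 24 h (log2 fold change 1.46 ± 0.14, adjusted p = 6.6e-06), and Zbtb16, a zinc finger repressor, had 5.49, 5.27 and 7.75 CPM in the fed libraries and 33.9, 51.3 and 49.4 CPM at 24 h (log2 fold change 2.86 ± 0.62, adjusted p = 0.0056). Tsc22d3 (GILZ), Sgk1 and Errfi1 rose by smaller amounts (1.06, 1.28 and 0.68, adjusted p = 0.024, 0.027 and 0.035). These 3 calls were each lost without fed replicate 1, fed replicate 2 or 24 h replicate 3, with adjusted p between 0.058 and 0.14. Sgk1 was also not called when only these groups were fitted (adjusted p = 0.11).

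Cdkn1a, the cell cycle inhibitor p21 (ENSMUSG00000023067), had 1.90, 0.879 and 0.882 CPM in the fed libraries and 19.7, 53.00 and 56.1 CPM at 24 h. The lowest fasted library was over 10 times the highest fed one (log2 fold change 5.15 ± 0.81, adjusted p = 0.00075). Of 10 growth arrest genes, 4 were called higher and 1 lower, with the same counts without fed replicate 3. Ccng2, an unconventional cyclin, had 5.16, 6.11 and 7.05 CPM in the fed libraries and 22.3, 21.3 and 49.4 CPM at 24 h (log2 fold change 2.34 ± 0.31, adjusted p = 0.00012), and Btg1, an antiproliferative factor, rose by 2.11-fold (log2 fold change 1.08 ± 0.19, adjusted p = 0.00082). Gadd45g, a stress-induced gene, rose by 1.71 (adjusted p = 0.036), a call lost without each of fed replicates 1 and 3 and 24 h replicates 2 and 3 (adjusted p = 0.091 to 0.13). The gene that fell was its relative Gadd45a, a stress sensor, which had 10.5, 26.05 and 11.4 CPM in the fed libraries and 2.18, 4.28 and 1.75 CPM at 24 h (log2 fold change -2.53 ± 0.47, adjusted p = 0.0017).

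Genes in the list of hepatokines, secreted liver proteins, moved both ways. Of its 15 genes, 4 were called higher and 3 lower, with 3 and 2 without fed replicate 3. The related lipoprotein lipase inhibitors Angptl4 and Angptl8 moved in opposite directions. Angptl4 had 12.5, 11.9 and 17.2 CPM in the fed libraries and 271, 259.9 and 364 CPM at 24 h and rose by 21.5-fold (log2 fold change 4.43 ± 0.30, adjusted p = 5.1e-07), while Angptl8, known to rise with feeding, had 211, 280.4 and 115 CPM in the fed libraries and 6.65, 13.1 and 8.14 CPM at 24 h and fell by 21.6-fold (log2 fold change -4.44 ± 0.48, adjusted p = 4.1e-05). Igfbp1, a binding protein that restrains insulin-like growth factors, had 14.6, 22.5 and 13.3 CPM in the fed libraries and 202, 297 and 1126 CPM at 24 h. 24 h replicate 3 was several-fold above the other fasted libraries, and all fasted libraries were above all fed ones (log2 fold change 5.01 ± 0.81, adjusted p = 0.00091). Sesn2, which is in the list but is an intracellular nutrient sensor, had 3.92, 4.91 and 4.996 CPM in the fed libraries and 19.4, 18.8 and 18.3 CPM at 24 h (log2 fold change 2.03 ± 0.20, adjusted p = 7.9e-06). Inhba, the activin βA chain, fell from 73.4, 60.5 and 50.9 to 7.04, 5.32 and 9.15 CPM, without overlap (log2 fold change -3.10 ± 0.32, adjusted p = 1.5e-05). Its antagonist Fst had under 2 CPM in every library, and its call (adjusted p = 0.049) was lost without each of fed replicates 1, 2 and 3 and 24 h replicates 1 and 2 (adjusted p = 0.077 to 0.15). Fetub rose by 0.46 (adjusted p = 0.021), a call lost without each of fed replicates 2 and 3 and 24 h replicates 1 and 3 (adjusted p = 0.059 to 0.11). Fgf21, the fasting hormone of the liver, had 6.23, 3.36 and 1.65 CPM in the fed libraries and 1.51, 7.19 and 5.98 CPM at 24 h, overlapping, and was not called (log2 fold change 0.40 ± 0.70, adjusted p = 0.75).

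Insulin and growth hormone signalling genes were mixed. Of 12 insulin pathway genes, 3 were called higher and 1 lower, with 2 and 1 without fed replicate 3. Over all tested genes, 9.59% were called higher and 10% lower, so 1 lower of 12 is close to that share. Irs2, the insulin receptor substrate repressed by insulin, had 4.003, 4.39 and 10.7 CPM in the fed libraries and 35.7, 24.2 and 98.2 CPM at 24 h, without overlap (log2 fold change 3.04 ± 0.51, adjusted p = 0.0010). Irs2 was not called when only these groups were fitted (adjusted p = 0.057). Insr, the receptor, rose by 0.37 (adjusted p = 0.0036), and Pik3r1, the regulatory subunit of PI3 kinase, had 92.97, 104 and 109 CPM in the fed libraries and 62.7, 62.1 and 42.2 CPM at 24 h and fell (log2 fold change -0.87 ± 0.15, adjusted p = 0.00082). Of 11 growth hormone axis genes, 3 were called higher and 4 lower, with 3 and 2 without fed replicate 3. In all, 3 of the 11 were called without fed replicate 1, and 4 without 24 h replicate 2 or 3. Igfals, which stabilises circulating IGF-1, had 141, 93.6 and 140.0 CPM in the fed libraries and 68.9, 54.04 and 62.99 CPM at 24 h (log2 fold change -1.01 ± 0.19, adjusted p = 0.0018), and Igfbp2 had 174, 192 and 185 CPM in the fed libraries and 373, 448 and 647 CPM at 24 h (log2 fold change 1.41 ± 0.25, adjusted p = 0.00095). Cux2, a factor known for its higher level in female liver, rose from 1.20, 2.20 and 3.34 to 13.9, 7.15 and 9.61 CPM (log2 fold change 2.17 ± 0.42, adjusted p = 0.0019), and Socs2, a feedback inhibitor of growth hormone signalling, by 1.34 (adjusted p = 0.012), a call lost without fed replicate 1 (adjusted p = 0.055). The falls of Cish, another feedback inhibitor (-2.61), Onecut1, a hepatocyte transcription factor (-2.56), and Ghr, the receptor (-0.39), had adjusted p between 0.022 and 0.039. Cish was not called without any 1 of the 6 libraries, Onecut1 without any but 24 h replicate 1, and Ghr without each of fed replicate 1 and 24 h replicates 2 and 3 (adjusted p = 0.069 to 0.11). Igf1 was not called (log2 fold change 0.25 ± 0.15, adjusted p = 0.28).

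Both groups were killed at the same clock hour, so the clock genes were compared at 1 phase of the light cycle. Of 18 tested clock genes, 2 were called higher and 4 lower, with 2 and 5 without fed replicate 3. Over all tested genes, 9.59% were called higher and 10% lower, so 2 higher of 18 is close to that share. The period genes, repressors of the clock, diverged. Per1 had 19.3, 24.05 and 22.7 CPM in the fed libraries and 42.3, 46.6 and 47.1 CPM at 24 h and rose (log2 fold change 1.04 ± 0.17, adjusted p = 0.00042), while Per2 had 59.1, 72.6 and 56.3 CPM in the fed libraries and 26.4, 26.2 and 28.2 CPM at 24 h and fell (log2 fold change -1.22 ± 0.16, adjusted p = 6.8e-05), both without overlap. Per3 fell too (log2 fold change -1.07 ± 0.25, adjusted p = 0.0064). Bhlhe40 (DEC1), another repressor, had 267, 229.9 and 165 CPM in the fed libraries and 45.05, 78.7 and 90.3 CPM at 24 h (log2 fold change -1.63 ± 0.34, adjusted p = 0.0037), and Nfil3, a repressor of D-box genes, rose by 2.47-fold (log2 fold change 1.31 ± 0.21, adjusted p = 0.00053). Arntl, the core activator BMAL1, was not called (log2 fold change 0.85 ± 0.35, adjusted p = 0.11). It was called higher by DESeq2 (adjusted p = 0.049) and without 24 h replicate 2 (adjusted p = 0.037).

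Of 13 genes of autophagy and lysosome, 6 were called higher and none lower (median 0.45), with 5 without fed replicate 3. Gabarapl1 and Map1lc3b, proteins of the autophagosome membrane, both rose. Gabarapl1 had 126, 166 and 194 CPM in the fed libraries and 339, 331 and 390.4 CPM at 24 h (log2 fold change 1.13 ± 0.17, adjusted p = 0.00024). Map1lc3b had 64.5, 70.2 and 60.1 CPM in the fed libraries and 122, 122 and 120.4 CPM at 24 h (log2 fold change 0.90 ± 0.09, adjusted p = 8.0e-06). The fasted values of Map1lc3b lay within 2 CPM of each other, and neither gene overlapped between groups. Bnip3, a receptor for the removal of mitochondria, rose by 1.74-fold (log2 fold change 0.80 ± 0.15, adjusted p = 0.0016).

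Several of the most changed genes stood in none of these lists. Among the 10 largest rises, chosen by fold among genes also called without fed replicate 3, were Nlrp12, a regulator of inflammatory signalling (2.27, 1.60 and 3.89 CPM in the fed libraries and 34.8, 36.7 and 53.02 CPM at 24 h; log2 fold change 3.99 ± 0.27, adjusted p = 3.3e-07), and Lgals4, a galectin (1.11, 2.12 and 2.76 to 14.6, 25.4 and 20.2 CPM; log2 fold change 3.32 ± 0.42, adjusted p = 0.00010). Ip6k2, an inositol hexakisphosphate kinase, had 0.578, 1.32 and 2.31 CPM in the fed libraries and 13.97, 8.19 and 18.2 CPM at 24 h (log2 fold change 3.24 ± 0.69, adjusted p = 0.0049). Lack of overlap between the groups and a mean of 10 CPM or more in the higher one were conditions of this choice and of that of the falls. Among the 10 largest falls, Chrna4, a nicotinic acetylcholine receptor subunit, had 32.97, 24.1 and 2.42 CPM in the fed libraries and 0.503, 0.416 and 0.644 CPM at 24 h, and fed replicate 3 was about 10-fold or more below the other fed libraries (log2 fold change -5.24 ± 0.98, adjusted p = 0.0022). Chrna4 was not called by limma-voom (adjusted p = 0.13) or when only these groups were fitted (0.051). Atp2b2, a plasma membrane calcium pump, had 28.8, 25.9 and 15.1 CPM in the fed libraries and 1.01, 2.66 and 1.33 CPM at 24 h (log2 fold change -3.77 ± 0.53, adjusted p = 0.00025).

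Among abundant genes outside the lists, Por, the reductase that supplies electrons to microsomal cytochromes P450, had 231, 318 and 304 CPM in the fed libraries and 1091, 1123 and 1062 CPM at 24 h. The fasted libraries lay close together, more than 3-fold above every fed one (log2 fold change 1.94 ± 0.25, adjusted p = 7.1e-05). Gpcpd1, which breaks down glycerophosphocholine, had 22.7, 28.2 and 23.8 CPM in the fed libraries and 241, 148 and 106 CPM at 24 h (log2 fold change 2.73 ± 0.45, adjusted p = 0.0010), and Trp53inp1, a p53-induced gene that also acts in autophagy, had 32.8, 36.2 and 55.7 CPM in the fed libraries and 148, 159.9 and 279.9 CPM at 24 h (log2 fold change 2.24 ± 0.43, adjusted p = 0.0027). St3gal5, the ganglioside GM3 synthase, and Fbxo31, a ubiquitin ligase subunit, rose by 4.30 and 4.10-fold (adjusted p = 0.00040 and 1.2e-07). Of the falls, Aqp8, a water channel, had 176, 131 and 44.3 CPM in the fed libraries and 16.04, 15.8 and 12.7 CPM at 24 h. Fed replicate 3 was the lowest fed library and remained above the fasted ones (log2 fold change -2.98 ± 0.54, adjusted p = 0.0018). Tuba1c, an α-tubulin, had 206, 203 and 164 CPM in the fed libraries and 35.9, 46.4 and 36.6 CPM at 24 h (log2 fold change -2.26 ± 0.14, adjusted p = 5.3e-08), and Nudt7, a peroxisomal enzyme that degrades coenzyme A, had 379, 276 and 299.9 CPM in the fed libraries and 78.9, 59.7 and 62.1 CPM at 24 h (log2 fold change -2.25 ± 0.24, adjusted p = 2.2e-05).

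The change was then set against that in pericentral hepatocytes, from 3 fed and 3 fasted libraries of the same series, where 21.8% of genes were called. Of 12477 genes, 2 (0.016%) had a change that differed between the zones by the edgeR interaction test, Ctnnbip1 and Scg2, against 962 at an unadjusted p under 0.05, 38 called by DESeq2 and 0 by limma-voom. Between 0 and 4 genes were called when 1 of the 12 libraries was left out. Ctnnbip1, an inhibitor of β-catenin, had 32.8, 28.04 and 32.4 CPM in the fed libraries and 27.6, 22.7 and 24.1 CPM at 24 h in periportal cells and was not called (log2 fold change -0.33 ± 0.20, adjusted p = 0.29). In pericentral libraries it rose by 2.05 (adjusted p = 3.5e-05), and the zone difference was -2.38 ± 0.32 (adjusted p = 0.016). The log2 fold change of Fasn was -4.70 here and -5.79 in pericentral hepatocytes, and that of Hspa5 was -1.97 and -1.82, with zone differences that were not called (1.08 ± 0.54 and -0.15 ± 0.26). Angptl4 rose by 4.43 and 3.00 (difference 1.43 ± 0.37, adjusted p = 0.35).

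Periportal genes gave larger differences that also missed the threshold. The rises of Pck1 and Sds were smaller here than in pericentral hepatocytes by point estimate (2.26 against 4.83, and 1.99 against 4.35). The pericentral rises started from lower fed levels. Pck1 averaged 1240 CPM fed and 5918 CPM at 24 h here, and 170 and 4820 CPM in pericentral libraries. Sds averaged 202 CPM fed and 804 CPM at 24 h here, and 6.72 and 137 CPM in pericentral libraries. The zone differences were -2.57 ± 0.66 for Pck1 and -2.36 ± 0.59 for Sds (adjusted p = 0.35 for both). Hal, the histidine ammonia-lyase, had 706, 552 and 812 CPM in the fed libraries and 1054, 1076 and 993 CPM at 24 h here. It was not called (log2 fold change 0.59 ± 0.25, adjusted p = 0.11), but was when only the periportal groups were fitted (adjusted p = 0.023). In pericentral cells it rose by 2.40. Cyp2f2, a classical periportal cytochrome P450, had overlapping groups here (log2 fold change -0.30 ± 0.32, adjusted p = 0.57) and rose by 1.44 there. Of the 14 periportal markers, 2 were called higher (Arg1 and Sds) and 1 lower (Cdh1, E-cadherin: 143, 98.1 and 120.2 CPM in the fed libraries and 45.9, 36.3 and 64.9 CPM at 24 h; log2 fold change -1.30 ± 0.28, adjusted p = 0.0044), and 11 had an unadjusted p under 0.05 for the zone difference, with 0 called. The 3 called were 21.4% of the periportal markers, against 19.6% of all tested genes. In pericentral hepatocytes, 10 of the 14 periportal markers were called higher and 0 lower. None of the 13 tested pericentral markers was called in periportal hepatocytes by edgeR, DESeq2 or limma-voom, and 1 had an unadjusted p under 0.05. Cyp2e1 had 373, 1206 and 325 CPM in the fed libraries and 1826, 944 and 416 CPM at 24 h, which overlapped widely. It was called higher without fed replicate 2 (adjusted p = 0.041), and Cyp1a2 was called lower without fed replicate 3 (adjusted p = 0.036).

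**Figure D5:**
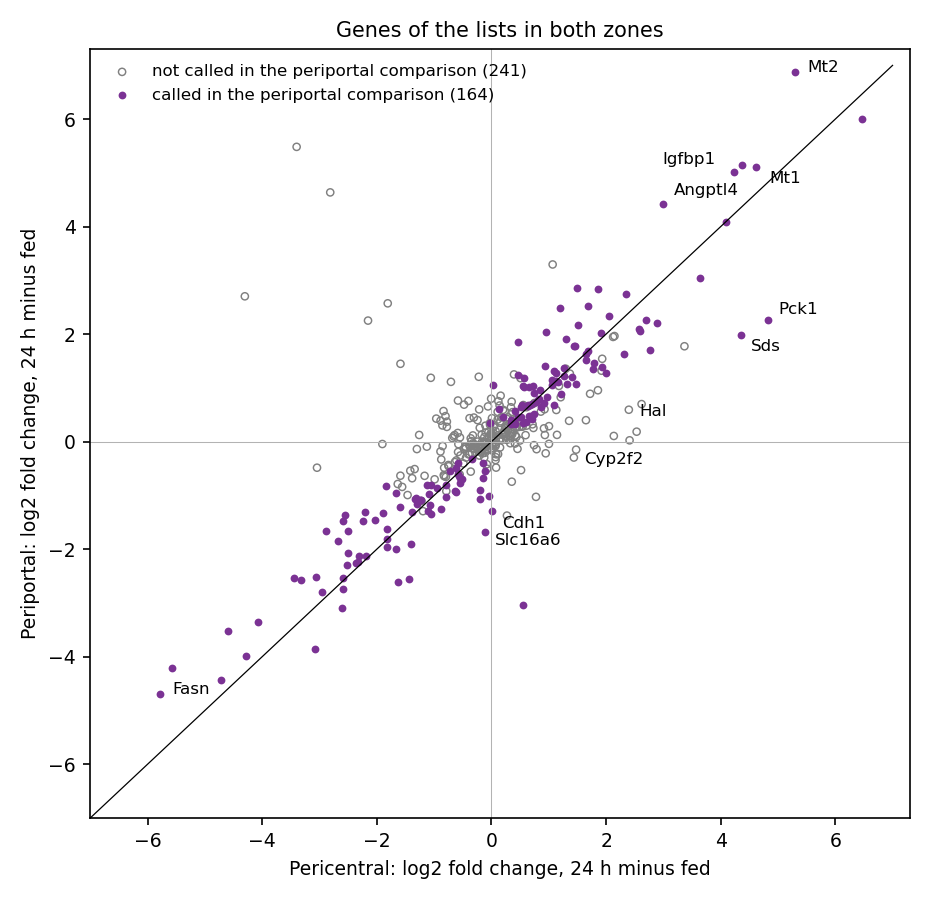
Log2 fold change from fed to 24 h in pericentral (x axis) and periportal (y axis) hepatocytes for 405 genes of the lists with reads in every group, with the line of equal change. Purple points (164) were called in the periportal comparison and open points (241) were not; the changes of Pck1 and Sds lie below the line and those of Mt2 and Angptl4 above it, and none of these 4 zone differences was called.

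Periportal libraries at 8 h of fasting, taken at clock hour 21 and compared with the same fed libraries (14.4% of genes called), give the earlier values side by side. The log2 fold changes at 8 h and 24 h were -3.78 and -3.85 for Srebf1, 4.27 and 4.43 for Angptl4, 6.42 and 5.15 for Cdkn1a, and -3.71 and -4.70 for Fasn, each called at both times. For Pklr they were -0.21 and -2.58, for Tkfc -0.16 and -1.85, for Pygl 0.33 and -1.09, and for Aqp8 0.41 and -2.98, called at 24 h and not at 8 h. Ppargc1a had 0.40 and 1.68, and Por 0.55 and 1.94, again called only at 24 h. For Per2 they were -3.51 and -1.22, both called. Hour of day and length of fast differ together between these times, and the difference between the changes was not tested.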

How the data were processed

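RNA was sequenced from periportal and pericentral hepatocytes of fed mice and of mice fasted for 8 h or 24 h, 3 libraries a group and 18 in all. The authors deposited estimated counts per Ensembl gene for 28030 gene IDs. The submitters' processing notes name kallisto 0.46.0 and the build mm10. Their settings, the transcript set and the use of strand are not given in the sources used here, so overlapping and antisense genes cannot be separated.

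The counts were rounded to whole numbers, and 27566 IDs were matched to a symbol. Genes were filtered with filterByExpr, scaled by TMM and fitted in edgeR 4.0.16 (R 4.3.3) with the robust quasi-likelihood method over all 18 libraries, 1 mean for each of 6 groups. The Benjamini-Hochberg adjustment covered all 12477 genes tested. The interaction of zone and fasting was tested in the same fit. Standard errors were derived from the fold change and its F statistic. The fit was tested on simulated counts. DESeq2 1.42.0, limma-voom (limma 3.58.1), other scalings and filters, a replicate block and the omission of each library were the alternatives.

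The comparison and the gene lists were chosen with earlier results of these data known. Named genes were the 10 largest changes in each direction (called with and without fed replicate 3, groups that did not overlap, a mean of 10 CPM or more in the higher one), list members with the largest and smallest changes or a role that needs them, genes called for the zone difference, and the 5 largest changes in each direction in no list with at least 100 CPM. Gene coordinates are from GENCODE vM21 (mm10), and promoters from RefSeq (GRCm38.p6, the same build), whose annotated starts can differ. Precision is limited by 3 libraries a group. The results of some genes of the lists are not reported here.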

Additional observations from a re-analysis of the deposited data

Results flagged for a closer look

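A pair of genes changed differently between fed and 24 h in the zones by the edgeR interaction test. For Ctnnbip1, an inhibitor of β-catenin, the zone difference in log2 fold change (periportal minus pericentral) was -2.38 (adjusted p = 0.016). Its estimated counts in pericentral libraries were 37, 42 and 47 fed and 126, 274 and 92 at 24 h, and in periportal libraries 795, 702 and 883 fed and 493, 547 and 524 at 24 h. The call was lost in 9 of 20 alternatives, with adjusted p from 3.6e-08 to 0.091.

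For Scg2, a secretogranin of secretory granules, the difference was -7.05 (adjusted p = 0.047). It had 0 counts in all 3 fed pericentral libraries and 12, 19 and 16 at 24 h there, against 11, 6 and 18 fed and 10, 8 and 9 at 24 h in periportal libraries. The fitted value depends on how counts of 0 are handled and is no bound, and the call was lost in 13 of 19 alternatives, with adjusted p from 0.0043 to 0.20.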

How the results depend on the processing

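The direction of all called genes that are named held under every alternative run. For Periportal 24 h against fed, the number called was 2002 to 2750 under other scalings, filters and tools, and 1512 to 2092 when 1 library was left out (720 to 1028 higher, 792 to 1064 lower). It was lowest without fed replicate 1, and 827 genes were lower without 24 h replicate 3. Of 146 named genes that were called, 16 lost the call without fed replicate 3, 30 without fed replicate 1 and 26 without 24 h replicate 3, and 15 when only the periportal fed and 24 h libraries were fitted. These 15 were Irs2, Chrna4, Eno1, Acacb, Acss2, Cyp4a31, Plin3, Pdk4, Slc25a25, Ghr, Sgk1, Dnajc3, Hadha, Hsp90aa1 and Psph. Their adjusted p in that fit ran from 0.0501 for Eno1 to 0.23 for Cyp4a31. The 10 largest changes in each direction were named only if called without fed replicate 3, so its count cannot be compared with the others. Of all 2446 called genes, 1784 kept the call without it. In genes that were not called, the log2 fold change of Scd1 ran from -0.97 without fed replicate 3 to 0.038, a reversal, without fed replicate 2, and that of Hspa1b from -0.87, a reversal, without 24 h replicate 3 to 1.69 without 24 h replicate 2.

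The zone difference was called for 2 genes, and for 1 with a filter at 1 CPM, 38 with DESeq2, 0 with limma-voom, 0 with the replicate block and 0 to 4 when 1 library was left out. The cause was not tested. The replicate numbers are not stated to pair the mice, so same-numbered libraries were not taken as pairs. Same-numbered fed and 24 h libraries deviated from their group means with correlations of 0.044, 0.020 and 0.035. With 3 libraries a group, deviations from the group mean are tied to each other, so these values cannot decide whether the libraries are paired. With the replicate block, 2505 genes were called for Periportal 24 h against fed (1218 higher and 1287 lower), and of the 3 fed libraries 1 correlated best with the 24 h library of its own number.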

Other observations

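Few genes of the lists not yet described were called. Their shares ran from 0% for immediate early genes to 16.7% for ATF4 and amino acid stress, against 19.6% of all tested genes. Of 12 genes of bile acid synthesis and transport, only Abcb11, the bile salt export pump, was called. It had 565, 564 and 529.7 CPM in the fed libraries and 291, 363 and 433 CPM at 24 h, without overlap (log2 fold change -0.61 ± 0.16, adjusted p = 0.012), and its call was lost without 24 h replicate 1 (adjusted p = 0.059). Of 14 acute phase genes, 1 was called, the transcription factor Cebpd, which had 1.49, 1.28 and 1.58 CPM in the fed libraries and 6.60, 13.3 and 9.43 CPM at 24 h (log2 fold change 2.75 ± 0.39, adjusted p = 0.00018). The serum amyloid genes were highest in 24 h replicate 3: Saa2 had 9.08, 9.83 and 4.15 CPM in the fed libraries and 34.8, 7.90 and 988 CPM at 24 h (log2 fold change 5.48 ± 2.86, adjusted p = 0.21), and reads can be shared out between Saa1 and Saa2, which are near-identical.

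Of 10 heat shock genes, the cytosolic chaperone Hsp90aa1 was called, with 351, 294 and 487 CPM in the fed libraries and 136, 162 and 285 CPM at 24 h (log2 fold change -0.96 ± 0.26, adjusted p = 0.016), and the call was lost without each of fed replicate 3 and 24 h replicates 1 and 2 (adjusted p = 0.066 to 0.079). Hsp90aa1 was also not called when only the periportal groups were fitted (adjusted p = 0.10). Of 11 tested immediate early genes, edgeR called 0, with 2 at an unadjusted p under 0.05, DESeq2 called 1 and limma-voom 0. Of 10 proliferation genes, the mitotic kinase Cdk1 was called at a low level (1.11, 0.959 and 0.588 to 2.18, 1.70 and 2.02 CPM; log2 fold change 1.15 ± 0.30, adjusted p = 0.014), and its call was lost without fed replicate 3 (adjusted p = 0.066). In the list of ATF4 and amino acid stress, 2 of 12 tested genes were called, Psph, of serine synthesis, lower (log2 fold change -0.33 ± 0.10, adjusted p = 0.029; lost without each of fed replicates 1 and 3 and 24 h replicates 1, 2 and 3 (adjusted p = 0.063 to 0.14)) and Ddit4, an inhibitor of mTORC1, higher. Ddit4 had 37.8, 25.1 and 13.6 CPM in the fed libraries and 107, 118 and 203 CPM at 24 h (log2 fold change 2.49 ± 0.66, adjusted p = 0.019), and its call was lost without each of fed replicates 2 and 3 and 24 h replicate 3 (adjusted p = 0.061 to 0.072). Alas2, the erythroid form of the first enzyme of haem synthesis, had 66.5, 58.4 and 55.3 CPM in the fed libraries and 39.96, 29.2 and 39.3 CPM at 24 h, without overlap (log2 fold change -0.73 ± 0.16, adjusted p = 0.0033).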
